A study of Mus musculus with 119 samples.

Results

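Sgk1 (gene 20393) encodes serum- and glucocorticoid-regulated kinase 1 and is the single gene described here, out of 18098 genes with a value in each of 119 RNA-seq libraries of mouse bone marrow-derived macrophages (BMDMs). The gene was chosen by its level in these same libraries: it was higher in Map3k8[D270A] than in WT cells at 2 h of LPS. Its 2 h values in WT and Map3k8[D270A] cells, and every difference in Sgk1 that rests on the WT libraries at 2 h, are therefore given as a description without a test. Other genes were tested at 2 h. The study asked which LPS-induced genes depend on the kinase TPL-2, the product of Map3k8, and on the ERK1/2 pathway that TPL-2 switches on.

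All mice were on the C57BL/6(NIMR) background, and their femoral bone marrow was cultured in L-cell conditioned medium, which holds the growth factor that drives macrophage formation. LPS was used at 100 ng/ml. There were 6 WT libraries of unstimulated cells, 6 each after LPS for 0.5 h and for 1 h, and 4 after 2 h. Map3k8[D270A] cells, in which TPL-2 carries a substitution that removes its kinase activity, gave 6 libraries at each of these 4 times. Elk1-/-Elk4-/- cells lack a pair of ternary complex factors, the ETS-family transcription factors that ERK1/2 phosphorylates, and gave 4 libraries at each time. Nfkb1[SS/AA] cells carry a form of NF-kB1 p105 whose IKK phosphorylation sites are mutated, so that TPL-2 is not released from it, and were sequenced unstimulated and after LPS for 0.5 h or 1 h, with 6 libraries each. PD0325901, an inhibitor of the ERK kinases MKK1/2, was given to WT cells at 0.1 µM for 10 min before LPS, with 6 libraries at 0.5 h and 6 at 1 h of LPS, and 3 libraries each after 10, 40 and 70 min of inhibitor alone. DMSO, its solvent, was given alone for 10 min in 3 libraries, and no library combined DMSO with LPS. RSKi47, an inhibitor of the ERK-activated kinase RSK, was given to WT cells at 2 µM for 10 min before LPS, with 4 libraries of unstimulated cells, 3 at 0.5 h and 4 each at 1 and 2 h. The mutations were present in every cell of the mouse. The labels place the untreated WT libraries in 1 experiment with those of Map3k8[D270A]. They were also the comparison group for the Elk1-/-Elk4-/-, Nfkb1[SS/AA] and inhibitor libraries, which came from other experiments. Where these arms are set against WT or Map3k8[D270A] cells, the experiment and the mutation or inhibitor cannot be told apart.

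SGK1 is a serine/threonine kinase of the AGC family and a close relative of the Akt kinases. It is activated by phosphorylation through mTORC2 and PDK1 downstream of PI3K, and it phosphorylates proteins such as the ubiquitin ligase NEDD4-2, NDRG1 and the FOXO transcription factors, which it keeps out of the nucleus. Unlike the Akt kinases, it is controlled to a large extent by the amount of its mRNA, which serum, glucocorticoids and cell stress raise quickly, and its protein is short-lived. In immune cells it is best known from T helper cells, where it acts as a salt-sensing kinase.

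The deposited values are on a log2 scale after normalization across libraries, by a transformation not given in the sources used here. Differences are therefore given in the units of the deposited values and were taken as log2. If the transformation drew values together, the true fold changes are larger. The sources used here do not give the depth of each library, and the spread between libraries sets the precision. The 8 macrophage markers had values of at least 9.48 in every library. All 3 T cell and all 3 B cell markers stayed below the filter on low values, 10 on the linear scale. Of the 6 neutrophil markers, Ly6g, Mpo and Elane also stayed below it, whereas S100a8, S100a9 and Ngp reached 8.48, 9.75 and 9.10, each in an Elk1-/-Elk4-/- library. Elk1 lay between 6.17 and 6.59 in the Elk1-/-Elk4-/- libraries and between 8.55 and 9.49 in the others, and Elk4 between 5.51 and 5.88 against 6.88 and 8.56. The other altered alleles are point mutations, which an mRNA level does not check.

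In the GRCm38 build, Sgk1 spans chr10:21882184-21999903 on the plus strand, and no other gene of the GENCODE annotation overlaps it. RefSeq gives it 6 start sites. The value in these data is 1 per gene, so the start sites could not be told apart. The 250 bases before the 2 start sites nearest the 3′ end are shown because the RefSeq forms of the gene with the shortest span begin there and because the data include cells without the ETS factors ELK1 and ELK4. Both lie in introns of the longer transcripts and touch no annotated exon. Capitals mark the ETS core GGAA and the glucocorticoid response element half-site TGTTCT, on either strand. The sequences are from RefSeq (GRCm38.p6), and the first is chr10:21994416-21994665 and the second chr10:21993640-21993889.
Start site 21994666: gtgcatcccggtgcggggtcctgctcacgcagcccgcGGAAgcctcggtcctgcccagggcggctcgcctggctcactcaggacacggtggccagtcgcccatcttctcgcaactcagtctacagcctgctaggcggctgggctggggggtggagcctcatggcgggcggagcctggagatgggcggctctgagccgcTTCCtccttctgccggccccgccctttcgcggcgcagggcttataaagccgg
Start site 21993890: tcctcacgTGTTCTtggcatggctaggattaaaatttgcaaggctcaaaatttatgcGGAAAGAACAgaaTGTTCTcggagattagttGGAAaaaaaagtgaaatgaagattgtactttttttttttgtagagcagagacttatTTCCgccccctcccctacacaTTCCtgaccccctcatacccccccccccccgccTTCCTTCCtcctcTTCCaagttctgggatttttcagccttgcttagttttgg

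The first window held 2 ETS cores, 213 and 52 bases before the start, and no glucocorticoid half-site. The second held 7 ETS cores and 3 half-sites, which began 242, 189 and 180 bases before the start. Those at 189 and 180 bases formed an inverted pair, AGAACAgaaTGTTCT, and the share of windows with such a pair was not counted. An ETS core is a short motif, and 93.4% of the 32851 promoter windows of the same length held at least 1 on either strand. The half-site was found in 16.1% of them. Further matches of the half-site stood before the starts at 21882184 and 21992223, 1 in each. The AP-1 site TGANTCA (6.75% of windows), the cyclic AMP response element TGACGTCA (1.55%), the FOXO core GTAAACA (3.17%), the NF-kB site (3.90%) and the serum response element core known as the CArG box (1.47%) were not matched before any of the 6 starts. The shorter cyclic AMP half-site TGACG, which is also the start of the full element, was matched once, before the start at 21978672, and in 17.8% of all windows. These are matches of letters in a short window and say nothing of binding.

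In WT BMDMs, LPS raised Sgk1 within 0.5 h, and the level had begun to fall by 1 h. Without LPS the 6 libraries ran from 10.58 to 10.86 with a median of 10.73, and at 0.5 h from 11.72 to 11.99 with a median of 11.85. At 1 h they ran from 11.54 to 11.77 with a median of 11.67. The 4 libraries at 2 h had values of 10.91, 10.76, 10.68 and 10.81. The libraries at 0.5 and 1 h lay above every library without LPS, whereas those at 2 h overlapped with the unstimulated ones. In such bulk samples, fewer cells that express a gene and less RNA per cell cannot be told apart.

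The rise at 0.5 h was 1.12 ± 0.066 (SE, n = 6 and 6) on the log2 scale (limma, adjusted p = 1.12e-20), in a comparison where 7.82% of the genes tested were called higher. At 1 h the difference from no LPS was 0.94 (adjusted p = 1.57e-18 by limma, with 23.8% of genes called higher). Between 0.5 and 1 h Sgk1 fell by 0.18 ± 0.066 (SE), and each of the 6 replicate numbers was lower at 1 h (limma, adjusted p = 0.027, 20.0% of genes called lower). The comparisons of 1 h with 0.5 h and of 2 h with 1 h, in all arms, were chosen after the data were seen. The call of this small fall was kept without WT replicate 5 or 8 (adjusted p = 0.036 and 0.024 by limma) and lost without replicate 4, 6, 7 or 9 (0.076, 0.091, 0.055 and 0.0502), while the difference stayed between -0.20 and -0.15. By description, the mean at 2 h was 0.88 below that at 1 h and 0.06 above that without LPS, a difference that turned to -0.17 with quantile normalization.

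**Figure D1:**
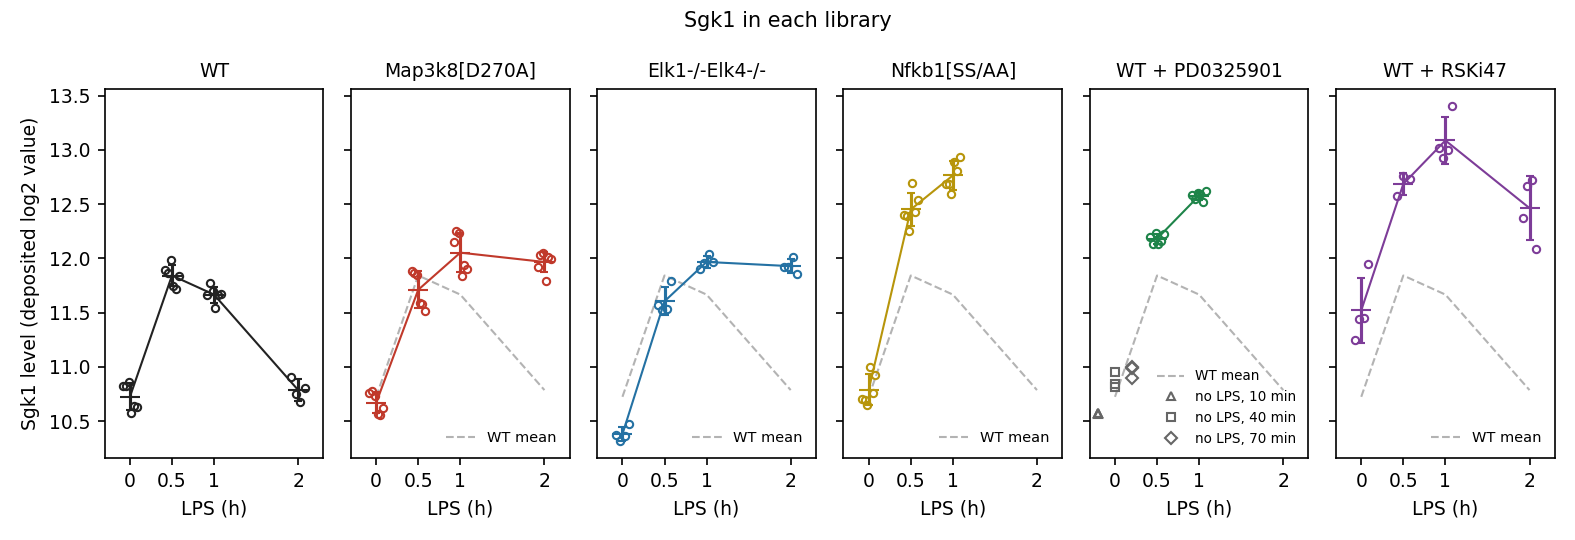
Sgk1 level (deposited log2 value) in each library against hours of LPS for the 6 arms that received LPS. Open circles are libraries, horizontal marks and bars the mean and SD, and the dashed line the WT mean; for PD0325901 the gray symbols at 0 h are cells with inhibitor alone. The WT mean went from 10.72 without LPS to 11.84 at 0.5 h and 10.79 at 2 h, whereas the Map3k8[D270A] and Elk1-/-Elk4-/- means at 2 h were 11.97 and 11.93.

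In Map3k8[D270A] cells, Sgk1 went on rising from 0.5 to 1 h, when it first passed the test against WT, and it was still high at 2 h. Without LPS the 6 libraries ran from 10.56 to 10.78 (median 10.68), and at 0.5 h from 11.51 to 11.88 (median 11.72). They ran from 11.84 to 12.25 at 1 h (median 12.05) and from 11.80 to 12.05 at 2 h (median 12.00). The ranges of the mutant and WT libraries overlapped without LPS and at 0.5 h and were separate at 1 and 2 h.

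Against WT, the difference without LPS was -0.06 (95% interval -0.19 to 0.08; limma, adjusted p = 0.83), and at 0.5 h it was -0.13 (-0.26 to 0.00; adjusted p = 0.44). At 1 h Sgk1 was higher in the mutant by 0.39 ± 0.066 (SE, n = 6 and 6; limma, adjusted p = 2.23e-05), where 5.14% of genes were called higher. The difference of the means at 2 h, the value by which the gene was chosen, was 1.18.

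Inside the mutant arm, Sgk1 rose by 1.04 at 0.5 h (limma, adjusted p = 3.36e-19, 3.91% of genes called higher) and by 1.38 at 1 h (adjusted p = 1.75e-25 by limma, 21.8% called higher), both against no LPS. From 0.5 to 1 h it rose by 0.34 ± 0.066 (SE), in each of the 6 replicate numbers (limma, adjusted p = 2.03e-05, 18.8% called higher). From 1 to 2 h the mean moved by -0.09, with 2 replicate numbers higher and 4 lower.

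The difference of changes was tested directly. At 0.5 h the LPS change in the mutant minus that in WT was -0.08 (95% interval -0.26 to 0.11; limma, adjusted p = 1.00). At 1 h it was 0.44 ± 0.093 (SE; limma, adjusted p = 0.0019), a result that 0.724% of genes shared in direction and call. For the step from 0.5 to 1 h alone it was 0.52 ± 0.093 (SE; adjusted p = 0.00029 by limma, 0.606% of genes).

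By replicate number the libraries of each arm can be split into a first set, WT replicates 4 to 6 and Map3k8[D270A] replicates 1 to 3, and a second, WT replicates 7 to 9 and Map3k8[D270A] replicates 4 to 6. No label marks these sets as a batch or ties a WT set to a mutant one. Without LPS and at 0.5 h, in both arms, and at 1 h in the mutant, the first set lay wholly above the second, whereas the ranges overlapped at 1 h in WT cells and at 2 h in both arms. Without LPS the first WT set lay between 10.82 and 10.86 and the second between 10.58 and 10.64, and the mutant sets at 1 h lay between 12.15 and 12.25 and between 11.84 and 11.94. The values within the sets are given as a description, since Sgk1 itself differed between them. The mutant minus WT difference at 1 h was 0.50 in the first sets and 0.27 in the second. The difference of changes at 1 h was 0.58 in the first and 0.30 in the second, and for the step from 0.5 to 1 h these values were 0.56 and 0.48. At 2 h the difference was 1.22 in the first sets and 1.13 in the second, which had 1 WT library.

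**Figure D2:**
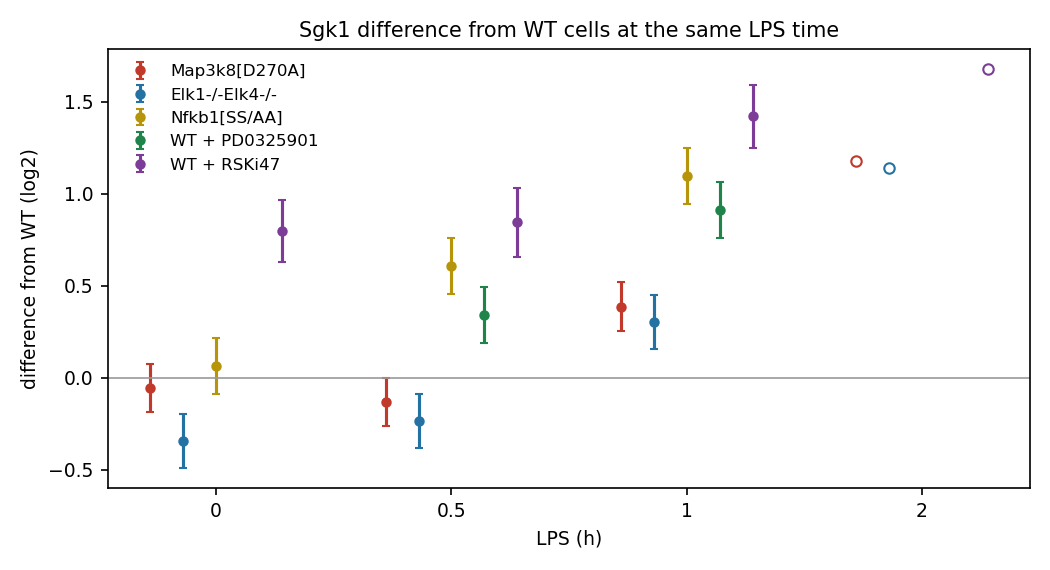
Difference in Sgk1 from WT cells (log2) at each LPS time for 5 arms. Filled points with bars are limma estimates with 95% intervals, and open points at 2 h are differences of means without a test, since the gene was chosen there. Map3k8[D270A] and Elk1-/-Elk4-/- cells lay at or below 0 until 0.5 h and above it from 1 h, and RSKi47 lay above 0 at every time.

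Elk1-/-Elk4-/- cells began with less Sgk1 than WT cells and reached the level of Map3k8[D270A] cells after LPS. Without LPS their 4 libraries had values of 10.37, 10.32, 10.36 and 10.47, all below the lowest WT library. At 0.5 h the values were 11.57, 11.52, 11.53 and 11.79. At 1 h they were 11.90, 11.96, 12.04 and 11.97, and at 2 h 11.92, 11.92, 12.02 and 11.86. The libraries at 1 and 2 h all lay above the WT libraries of the same time.

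Relative to WT, Sgk1 was lower by a log2 difference of -0.34 ± 0.073 (SE, n = 4 and 6) without LPS (limma, adjusted p = 9.70e-05) and of -0.24 at 0.5 h (adjusted p = 0.0070), where 24.6% and 22.0% of genes were called lower. At 1 h it was higher by 0.30 ± 0.073 (SE; limma, adjusted p = 0.00052), as were 27.2% of genes. At 2 h the difference of the means was 1.14. Summed neutrophil markers, over 6 genes, lay between 9.73 and 10.77 in these libraries against 5.93 to 7.50 in WT libraries. S100a8 lay between 7.60 and 8.48 against 4.45 to 5.76 in WT, S100a9 between 8.69 and 9.75 against 4.52 to 6.46, and Ngp between 7.88 and 9.10 against 3.53 to 5.19. The values of Ly6g, Mpo and Elane also lay above those of every WT library, although below the filter. The part of these markers in the result was not tested.

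Inside this arm the rise was 1.22 at 0.5 h, 1.59 at 1 h and 1.55 at 2 h, each against no LPS (limma, adjusted p = 1.73e-18, 4.99e-24 and 4.36e-24, with 3.22%, 16.6% and 35.2% of genes called higher). Sgk1 rose by 0.36 from 0.5 to 1 h (limma, adjusted p = 0.00028, 14.1% called higher). From 1 to 2 h the difference was -0.04 (95% interval -0.20 to 0.12; limma, adjusted p = 0.70), and with quantile normalization it was -0.23 and passed (adjusted p = 0.019). The 2 h libraries of these cells played no part in choosing the gene.

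The LPS change at 0.5 h exceeded that of WT cells by 0.11 (95% interval -0.10 to 0.31; limma, adjusted p = 1.00). After 1 h the excess was 0.64 ± 0.10 (SE; limma, adjusted p = 5.13e-05, 0.404% of genes). For the step from 0.5 to 1 h the excess was 0.54 (adjusted p = 0.00081 by limma, 1.03% of genes). Between the 2 mutants at 1 h the difference was -0.09 (Elk1-/-Elk4-/- minus Map3k8[D270A]; 95% interval -0.26 to 0.08; limma, adjusted p = 0.41).

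Nfkb1[SS/AA] cells had more Sgk1 than WT cells from 0.5 h. Without LPS the 6 libraries ran from 10.65 to 11.00 (median 10.73), overlapping with WT. They ran from 12.25 to 12.70 at 0.5 h (median 12.41) and from 12.59 to 12.93 at 1 h (median 12.75), above every WT library of any time. The difference from WT was 0.07 without LPS (95% interval -0.09 to 0.22; limma, adjusted p = 0.55). It was 0.61 at 0.5 h (adjusted p = 2.59e-10 by limma, 16.7% of genes called higher) and 1.10 ± 0.077 (SE, n = 6 and 6) at 1 h (adjusted p = 4.46e-23, 20.5% called higher).

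The rise within Nfkb1[SS/AA] cells was 1.66 at 0.5 h and 1.97 at 1 h (limma, adjusted p = 2.75e-36 and 5.51e-43, 8.55% and 22.5% of genes called higher), and from 0.5 to 1 h Sgk1 rose by 0.31 (adjusted p = 0.00038, 21.8% called higher), a call that was lost with quantile normalization (0.17, adjusted p = 0.063 by limma). This was the arm whose change already exceeded that of WT at 0.5 h, by 0.54 ± 0.11 (SE; limma, adjusted p = 0.0023, 0.192% of genes). At 1 h the excess was 1.03 (limma, adjusted p = 7.25e-13, 1.77% of genes) and for the step from 0.5 to 1 h 0.49 (adjusted p = 0.00090, 1.29%). At 1 h Sgk1 was 0.71 higher than in Map3k8[D270A] cells (limma, adjusted p = 2.80e-13, 22.7% called higher). Replicate 2 at 1 h differed most of all 119 libraries from its group mean over all genes (root mean square 0.253, median of libraries 0.116), but its Sgk1 value of 12.68 lay inside the range of the others.

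Sgk1 was also higher when MKK1/2 was inhibited during LPS. With PD0325901 the 6 libraries at 0.5 h ran from 12.13 to 12.23 (median 12.18) and at 1 h from 12.52 to 12.62 (median 12.59), all above every WT library. Compared with WT cells at the same time, the difference was 0.34 at 0.5 h (limma, adjusted p = 0.00033, 14.5% of genes called higher) and 0.91 ± 0.077 (SE, n = 6 and 6) at 1 h (adjusted p = 5.91e-18, 16.4% called higher). At 1 h the level was 0.53 above that of Map3k8[D270A] cells (limma, adjusted p = 2.72e-08, 18.5% called higher). The summed neutrophil markers lay between 7.05 and 8.54 in the PD0325901 libraries and between 7.20 and 7.94 with DMSO, against 5.93 to 7.50 in WT libraries, with Ngp between 5.16 and 6.64. They lay between 6.44 and 8.09 in Nfkb1[SS/AA] and between 6.81 and 8.31 in RSKi47 libraries, and their part in the results of these arms was not tested.

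Without LPS the level was higher after longer incubation with PD0325901. The 3 libraries after 10 min had values of 10.58, 10.57 and 10.57, those after 40 min 10.82, 10.84 and 10.95, and those after 70 min 10.90, 10.99 and 11.00. The DMSO libraries had 10.58, 10.55 and 10.60. PD0325901 at 10 min minus DMSO was -0.0073 (95% interval -0.22 to 0.21; limma, adjusted p = 1.00). DMSO against untreated WT gave -0.14 (95% interval -0.33 to 0.04; adjusted p = 0.27). Against 10 min, Sgk1 differed by 0.30 after 40 min (limma, adjusted p = 0.12) and was higher by 0.39 ± 0.11 (SE, n = 3 and 3) after 70 min (adjusted p = 0.015, 2.62% of genes called higher). The call at 70 min was lost without any 1 of the 3 replicates (adjusted p by limma up to 0.16), while the difference stayed between 0.37 and 0.42, and no exact permutation test of 3 against 3 libraries can reach 0.05.

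Taken against inhibitor alone of matched time, LPS raised Sgk1 by 1.31 at 0.5 h and 1.62 at 1 h (limma, adjusted p = 1.65e-22 and 1.92e-29, with 9.38% and 21.9% of genes called higher). From 0.5 to 1 h of LPS the level rose by 0.40 (limma, adjusted p = 6.90e-06, 18.7%). This step was not taken against inhibitor alone, whose means were 10.87 at 40 min and 10.96 at 70 min. The change at 0.5 h was 0.19 above that of WT cells (95% interval -0.05 to 0.43; limma, adjusted p = 0.65). After 1 h it was 0.67 above (adjusted p = 2.94e-05 by limma, 1.10% of genes). For the step from 0.5 to 1 h, not taken against inhibitor alone, the excess over WT was 0.57 (limma, adjusted p = 0.00023, 0.476%).

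RSKi47 gave the highest group mean of Sgk1, and the level was above that of WT already without LPS. The 4 libraries without LPS had values of 11.24, 11.44, 11.45 and 11.95, and the 3 at 0.5 h 12.57, 12.76 and 12.73. At 1 h the values were 13.02, 12.93, 13.00 and 13.41, and at 2 h 12.37, 12.67, 12.73 and 12.09. Every one of these libraries lay above the WT libraries of its time.

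The last value of each group of 4 is replicate 4, which was the highest without LPS and at 1 h and the lowest at 2 h. Its summed fibroblast markers, over 4 genes, lay between 6.49 and 9.41, against 5.04 to 5.97 in replicates 1 to 3 and 3.91 to 4.90 in WT cells, with Col1a1 up to 9.03 and Col1a2 up to 7.28 in replicate 4 against 4.69 and 5.15 in replicates 1 to 3, while Dcn and Col3a1 stayed below the filter on low values in all libraries. Their part in the result was not tested, and values without replicate 4 are given beside the others.

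Relative to WT, Sgk1 was higher by 0.80 ± 0.086 (SE, n = 4 and 6) without LPS (limma, adjusted p = 2.03e-13, 26.8% of genes called higher), and by 0.65 without replicate 4 (adjusted p = 1.86e-11). At 0.5 h the difference was 0.84 (limma, adjusted p = 1.51e-12, 23.7% called higher). After 1 h it was 1.42 (limma, adjusted p = 6.91e-27, 26.5% called higher), and 1.31 without replicate 4. At 2 h the means differed by 1.68, and by 1.80 without replicate 4.

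Against RSKi47 without LPS, Sgk1 with RSKi47 and LPS was higher by 1.16 at 0.5 h, 1.57 at 1 h and 0.94 at 2 h (limma, adjusted p = 2.39e-17, 2.93e-28 and 9.67e-16, with 3.38%, 15.0% and 32.5% of genes called higher). Without replicate 4 these rises were 1.31, 1.60 and 1.21. From 0.5 to 1 h it rose by 0.40 (adjusted p = 0.0013 by limma, 11.5% called higher; 0.29 without replicate 4). With only the groups compared in the fit this call was lost (adjusted p = 0.052 by limma). From 1 to 2 h it fell by 0.62 ± 0.094 (SE; limma, adjusted p = 1.12e-08, 24.4% called lower). Without replicate 4 the fall was smaller, with a log2 difference of -0.39 (adjusted p = 0.00013).

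The LPS change at 0.5 h differed from that of WT cells by 0.05 (95% interval -0.21 to 0.30; limma, adjusted p = 1.00), and by 0.19 without replicate 4 (adjusted p = 1.00). At 1 h it was 0.62 above that of WT (limma, adjusted p = 0.00017, 2.26% of genes) and for the step from 0.5 to 1 h 0.58 above (adjusted p = 0.0019, 1.70%). Without replicate 4 the values at 1 h and for the step were 0.66 and 0.47 (adjusted p = 1.25e-05 and 0.0049 by limma).

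**Figure D3:**
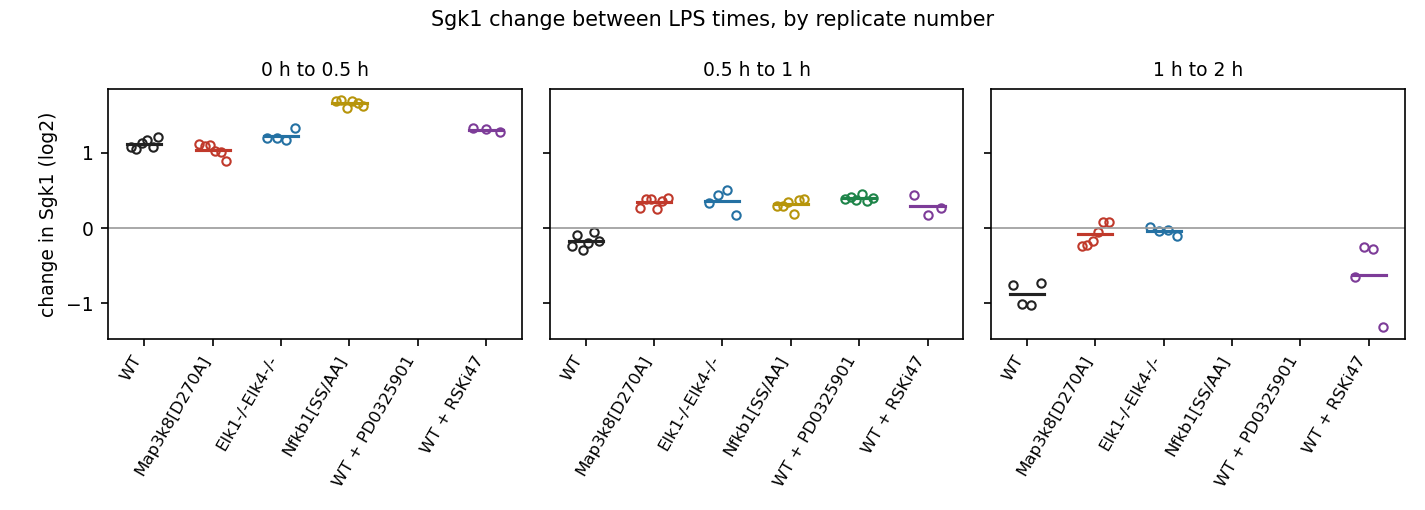
Change in Sgk1 (log2) between successive LPS times for libraries of the same arm and replicate number; circles are replicate numbers and lines their means. From 0.5 to 1 h all 6 WT values were below 0, between -0.29 and -0.06, and all values of the other 5 arms were above it, from 0.17 to 0.50. The first step is not drawn for PD0325901, and 2 h was not measured for it or for Nfkb1[SS/AA].

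The step from 0.5 to 1 h was thus the step at which WT cells differed from each of the 5 other arms: it went down in 6 of 6 WT replicate numbers and up in 6 of 6 Map3k8[D270A], 4 of 4 Elk1-/-Elk4-/-, 6 of 6 Nfkb1[SS/AA], 6 of 6 PD0325901 and 3 of 3 RSKi47 numbers. Over all genes, 5 of the 6 PD0325901 pairs and 2 of the 3 RSKi47 pairs had a correlation above 0.1, as did every pair of the other arms, and 2 of the 6 PD0325901 pairs were the best match by number. These 5 comparisons share the 12 WT libraries at 0.5 and 1 h and are not independent of each other. In the PD0325901 and RSKi47 arms the time with inhibitor also grew over this step, and no value of inhibitor alone was taken off. From 1 to 2 h all 4 WT and all 4 RSKi47 numbers went down.

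Over all 25 groups the mean level spanned 2.71, from 10.38 in Elk1-/-Elk4-/- cells without LPS to 13.09 with RSKi47 at 1 h. With the groups put in order, the ranges of 21 of the 24 neighbouring pairs overlapped. The 3 gaps lay between Elk1-/-Elk4-/- without LPS and PD0325901 at 10 min, between PD0325901 at 70 min and RSKi47 without LPS, and between PD0325901 and Nfkb1[SS/AA] at 0.5 h. The 9 groups below the second gap comprised all groups without LPS other than that of RSKi47, and WT at 2 h.

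Of the other SGK family genes, Sgk3 had a value. Its kinase is brought to endosomes by a lipid-binding domain. In WT cells Sgk3 was 0.19 higher at 1 h of LPS than without (limma, adjusted p = 0.0013). At 1 h it differed from WT by -0.02 in Map3k8[D270A] cells and 0.03 with RSKi47 (adjusted p = 0.86 and 0.71 by limma). In Elk1-/-Elk4-/- cells Sgk3 was higher than in WT cells by 0.19 without LPS, 0.14 at 1 h and 0.58 at 2 h (adjusted p = 0.0052, 0.041 and 5.20e-11 by limma).

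The genes around the pathway were taken as 5 lists and compared between Map3k8[D270A] and WT cells, at 1 h (where 5.14% of all genes tested were called higher and 4.64% lower) and at 2 h (14.6% and 13.1%). The median difference over all genes tested was 0.00 at 1 h and 0.01 at 2 h. Of the SGK and Akt kinases other than Sgk1, 4 were tested, of which 1 was lower at 1 h and 2 at 2 h, with medians of -0.04 and -0.06. These were Akt2, the isoform best known for insulin signalling, with a difference of -0.09 at 1 h and -0.23 at 2 h, and Akt1, the most widely expressed isoform, with -0.08 at 2 h. No gene of this list was higher.

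Upstream, 18 genes of PI3K, PDK1 and mTORC2 were tested, and 2 were higher at 1 h and none lower. At 2 h 5 were higher and 5 lower, and the medians were 0.01 and 0.02. The largest differences among those called at 2 h were 0.35 for Mlst8, a subunit of both mTOR complexes, -0.33 and -0.27 for the PI3K catalytic subunits Pik3cd and Pik3cb, and -0.26 for the regulatory subunit Pik3r5. Pdpk1, which encodes PDK1, differed by -0.18 at 2 h.

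Of 12 genes for SGK1 substrates and turnover, 1 was higher and 2 lower at 1 h, and 3 were higher and 1 lower at 2 h, with medians of -0.02 and 0.03. Ndrg1, which encodes a substrate used as a readout of SGK1 activity, differed by -0.31 at 1 h and -0.66 at 2 h, and Mdm2, the ubiquitin ligase of p53, by -0.39 at 1 h and 0.31 at 2 h. Foxo3 was 0.21 and Gsk3b 0.19 higher at 2 h, and Foxo1 was 0.18 higher at 1 h. Nedd4l, the gene for NEDD4-2, differed by -0.01 at 2 h and was not called.

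Sgk1 is a classical glucocorticoid-induced gene, and 11 genes of the glucocorticoid receptor and its targets were tested. At 1 h none was higher and 2 were lower, and at 2 h 1 was higher and 4 lower, with medians of -0.19 and -0.06. The metallothioneins Mt2 and Mt1 differed by -2.11 and -1.10 at 2 h, the MAP kinase phosphatase gene Dusp1 by -0.91, and Ddit4, which encodes an inhibitor of mTORC1 signalling, by -0.90. Tsc22d3, the gene for the glucocorticoid-induced leucine zipper, was 0.60 higher. The receptor gene Nr3c1 differed by 0.04 and was not called.

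Of 11 FOXO target genes, 2 were higher and 2 lower at 1 h, and 7 were higher and 2 lower at 2 h, with medians of -0.08 at 1 h and 0.32 at 2 h, against 0.00 and 0.01 over all genes. Those with the largest differences at 2 h were Sesn1, a stress-induced regulator of mTORC1 (0.57), Ccng2, a cyclin linked to cell cycle arrest (0.44), Pik3ip1, an inhibitor of PI3K (0.43), and Irs2, an insulin receptor substrate (-0.40). Klf2, a transcription factor that restrains macrophage activation, was lower at both times, with -1.29 at 1 h and -0.32 at 2 h. The lists were chosen with earlier results of these libraries known, and the 2 h counts come from the contrast that chose Sgk1.

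The 8 genes whose group means were most like those of Sgk1, by Pearson correlation over the 25 groups among 3635 other genes that varied by at least 1, were Ppp1r15a, Klf6, Pim1, Cxcl2, Tnf, Csrnp1, Ccrl2 and Nfkbiz, with r from 0.846 to 0.827. The points share libraries and one LPS response and are not independent. Ppp1r15a encodes a stress-induced phosphatase subunit, Pim1 a kinase, Ccrl2 a membrane protein related to chemokine receptors, Cxcl2 and Tnf secreted inflammatory proteins, and Klf6, Csrnp1 and Nfkbiz nuclear regulators of transcription. The choice depended on the measure: a Spearman correlation kept 2 of the 8 (it was led by Mybpc3), and leaving out the 2 h groups kept 1 (it was led by Gas2l3, with r = 0.933).

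**Figure D4:**
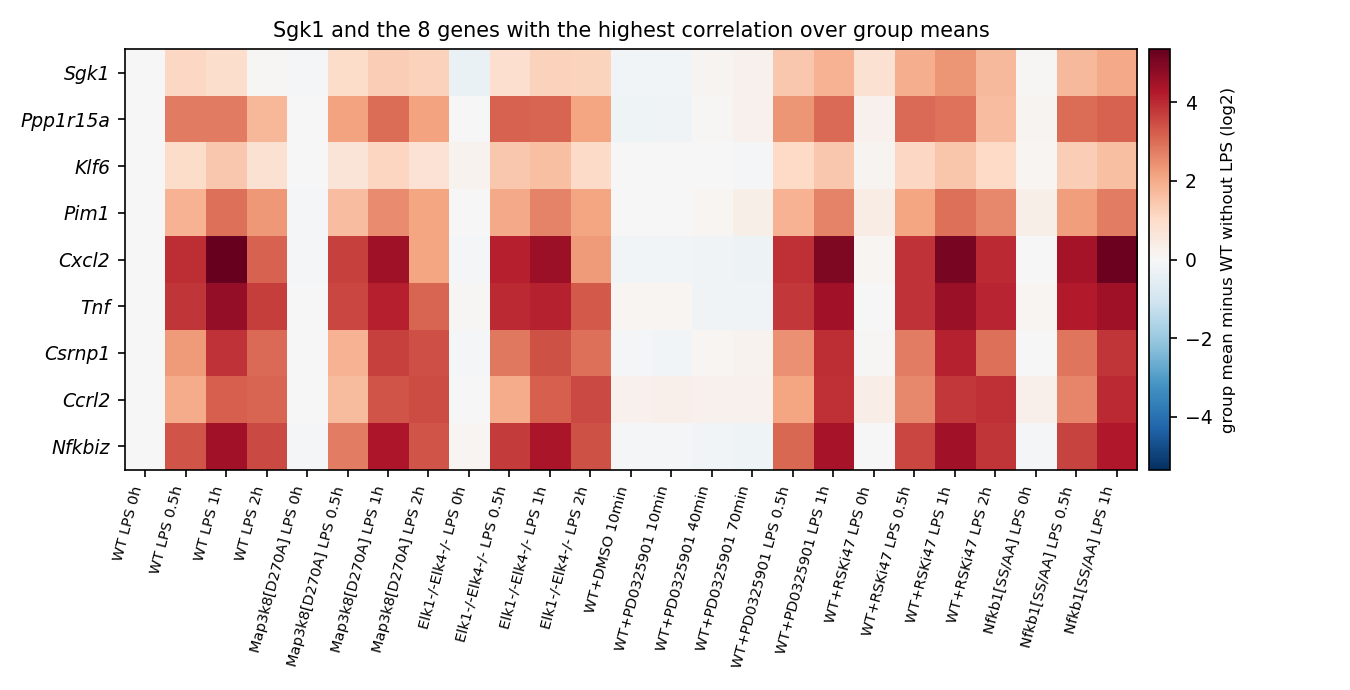
Group mean minus the mean of WT cells without LPS (log2, color) for Sgk1 and the 8 genes with the highest Pearson correlation with it over 25 groups. All 9 genes were higher with LPS in every arm at 0.5 and 1 h.

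Since these genes were chosen on the same group means, their differences are given as a description. Relative to WT at 1 h, they ran in Map3k8[D270A] cells from -0.80 (Cxcl2) to 0.20 (Ppp1r15a), with Tnf at -0.57, Pim1 at -0.42 and Klf6 at -0.29, against 0.39 for Sgk1. In Elk1-/-Elk4-/- cells the range was -0.79 (Cxcl2) to 0.31 (Ppp1r15a), against 0.30 for Sgk1. It was -0.22 (Pim1) to 0.77 (Ccrl2) in Nfkb1[SS/AA] cells, against 1.10, and -0.37 (Cxcl2) to 0.72 (Ccrl2) with PD0325901, against 0.91. With RSKi47 it was -0.28 (Cxcl2) to 0.59 (Ccrl2), against 1.42. Some of the genes thus lay above and others below WT in each of these arms, where Sgk1 lay above it. In WT cells the 8 genes differed by 0.02 (Ppp1r15a) to 1.59 (Csrnp1) between 0.5 and 1 h, where Sgk1 fell. With RSKi47 and no LPS their differences from WT ran from 0.03 (Tnf) to 0.41 (Pim1), against 0.80 for Sgk1.

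Among the 3 nearest genes with a value on each side, Aldh8a1, 1700020N01Rik, Gm5420 and 4930444G20Rik were too low to be tested. E030030I06Rik differed between Map3k8[D270A] and WT at 2 h by -0.24. Raet1e, which encodes a ligand of the NKG2D receptor and lies 158.6 kb beyond Sgk1, differed there by -0.23 and was 0.63 higher in Elk1-/-Elk4-/- than in WT cells at 1 h (limma, adjusted p = 1.45e-11).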

How the data were processed

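The authors aligned strand-specific single-end reads to mm10 with STAR, estimated abundances per RefSeq gene with RSEM and normalized with DESeq2 (versions 2.5.1b, 1.2.29 and 1.10.1 in the submitters' processing notes). The deposited values are on a log2 scale, from -2.40 to 19.81. The sources used here give neither the transformation behind them nor the depth of each library, and counts could not be recovered. A single value above 25 was set to missing, and its gene (Fosb) was left out of the fit over all libraries. Each of the 119 columns was matched to a sample by its title.

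Groups were compared with limma 3.58.1 (R 4.3.3), with a mean for each group. One fit held the 62 WT, Map3k8[D270A] and Elk1-/-Elk4-/- libraries (11884 genes that reached 10 on the linear scale in 4 libraries). The other held all libraries (11970 genes, in 3 libraries) and served the other arms. Benjamini-Hochberg adjustment ran over all genes tested, and a gene was called at an adjusted p below 0.05. The p values measure the spread between libraries, which the methods describe as biological replicates and the labels do not tie to animals. Of 65 comparisons of Sgk1, 58 were tested and 7, those that rest on WT or Map3k8[D270A] libraries at 2 h, were described.

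The gene, the lists and the rules were chosen with earlier results of these data known. Named were Sgk1, the 8 genes most like it, Sgk3, up to 4 genes per list with the largest difference among those called at 2 h, and the 3 nearest genes on each side; other list genes were named after their values were seen. Same-numbered libraries of an arm deviated together over all genes in WT (r above 0.1 in 30 of 30 pairs) and Nfkb1[SS/AA] cells (18 of 18), and Map3k8[D270A] (34 of 36), RSKi47 (20 of 21) and Elk1-/-Elk4-/- libraries (20 of 24), and in 14 of 33 pairs with PD0325901. Alternatives covered the filter, the limma prior, the libraries fitted, scaling, single replicates, a replicate block and exact permutation. The comparison was tested on simulated data. Promoter windows came from RefSeq (GRCm38.p6), transcripts from GENCODE.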

Additional observations from a re-analysis of the deposited data

Results flagged for a closer look

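Among 20 groups of 4 to 6 libraries, none had a library of Sgk1 that stood apart from the rest of its group by Dixon's criterion. Of 15 tests of a difference between the LPS change in an arm and that in WT cells, 11 passed the threshold (limma, adjusted p below 0.05), and all of these share WT libraries. At 1 h against no LPS, the change exceeded that of WT by 0.44 in Map3k8[D270A], 0.64 in Elk1-/-Elk4-/- and 1.03 in Nfkb1[SS/AA] cells, by 0.67 with PD0325901 and by 0.62 with RSKi47. At 0.5 h the excess passed in Nfkb1[SS/AA] cells, with 0.54. From 0.5 to 1 h it was 0.52, 0.54, 0.49, 0.57 and 0.58 in the same order of arms.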

How the results depend on the processing

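Over the alternatives other than the sets of replicate numbers, 861 of 878 recomputed tested values of Sgk1 kept their direction and their side of the threshold, 14 lost or gained a call and 3 turned in direction. Of 92 recomputed values given without a test, 85 moved by less than the spread between replicates, and of the other 7, 6 kept their direction. No value changed its call or direction or moved further than that spread with no filter, with a mean-variance trend and robust prior, with libraries centred on their medians and in the exact two-sided permutation test of Sgk1 alone (40 comparisons of 2 groups; not run for differences of changes or for 3 against 3 libraries). Group medians differed by at most 0.045 in log2. Quantile normalization moved the described 2 h values: WT at 2 h became -0.17 against no LPS and -0.99 against 1 h, Map3k8[D270A] 1.02 and -0.27, and Elk1-/-Elk4-/- minus WT 1.02. It also gave a fall of Elk1-/-Elk4-/- from 1 to 2 h (-0.23, adjusted p = 0.019 by limma), lost the rise of Nfkb1[SS/AA] from 0.5 to 1 h (0.17, adjusted p = 0.063) and turned PD0325901 minus DMSO to 0.0035. With only the groups compared in the fit, the RSKi47 rise from 0.5 to 1 h (0.40) lost its call (adjusted p = 0.052) and PD0325901 at 40 against 10 min (0.30) gained one (adjusted p = 0.014). A replicate block by number across arms, whose numbers the labels do not tie to a shared animal, gave Map3k8[D270A] minus WT as -0.18 without LPS and -0.26 at 0.5 h, both then called, and 1.08 at 2 h, and Elk1-/-Elk4-/- minus WT as 0.14 at 1 h, no longer called, and 1.00 at 2 h. Correlations of same-numbered WT and mutant libraries ran from -0.45 to -0.06 for Map3k8[D270A]. Inside an arm the replicate block changed no call. Leaving out single replicates gave -0.20 to -0.15 for WT from 0.5 to 1 h, 0.37 to 0.42 for PD0325901 at 70 against 10 min, -0.020 to 0.0041 for PD0325901 minus DMSO, and -0.014 to 0.19 for the RSKi47 difference of changes at 0.5 h. Within the first sets of replicate numbers, which no label marks as a batch, the Map3k8[D270A] difference of changes at 0.5 h became 0.024, and within the second that at 1 h was 0.30, both given as a description. A 2-fold requirement left 1 list gene called at 1 h and 2 at 2 h. The cause of these shifts was not tested. The depth of each library is not given, which limits what the small differences without LPS can show.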
